A study of Rattus norvegicus with 8 samples.

Results

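TGF-beta is a family of secreted cytokines that steers matrix production and smooth muscle behaviour in the vessel wall. The 10 genes described here encode its 3 ligands (Tgfb1, Tgfb2 and Tgfb3), its 3 classical receptors (Tgfbr1, Tgfbr2 and Tgfbr3) and the 4 latent TGF-beta binding proteins, or LTBPs (Ltbp1, Ltbp2, Ltbp3 and Ltbp4). Each ligand is made as a precursor whose propeptide stays bound to the cytokine and keeps it latent. An LTBP tethers that latent complex to microfibrils of the extracellular matrix, from which integrins and proteases can release it. The freed ligand assembles the type I and type II receptor kinases encoded by Tgfbr1 and Tgfbr2, which phosphorylate Smad proteins. Tgfbr3, betaglycan, is a co-receptor that presents ligand, above all TGF-beta 2.

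The genes were picked by symbol, and the probes by the transcript accession that the array files give for each. All 10 had a named probe, with 13 probes among the 45598 on the array, and all 13 were well above background on all 8 arrays. Tgfb2, Tgfbr1 and Tgfbr2 had 2 probes each and the other 7 genes 1. In the whole-array fit, where a gene stood by its brightest probe, these were 10 of 24552 tests.

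The arrays measured vessel RNA of 4 male rats of a hypertensive disease model and 4 male control rats, with 1 array per animal. The series title sets Wistar-Kyoto rats, a normotensive strain, as controls against the hypertensive model, yet the labels list Wistar-Kyoto as strain for both groups, so which strain the hypertensive animals were is not settled here. Age, treatment and the vessel taken are not given in the sources used here. All levels below are log2 processed signal minus the 75th percentile of the array, and changes are hypertensive minus control.

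The 75th percentile of the signal was 357 to 478 in hypertensive and 405 to 503 in control arrays, and 58.7% to 64.1% of probes per array were well above background. Hypertensive replicate 4 stood apart on the second principal component (-44.6, against -12.0 to 24.9 for the other 7 arrays). Its summed level of 7 tested white adipocyte markers was 40.2, against 4.84 to 8.67 in the other hypertensive and 4.96 to 11.7 in the control arrays (linear scale, relative to the 75th percentile). The defining smooth muscle genes Myh11 and Acta2 had mean levels of 7.17 and 6.14 in hypertensive and 7.09 and 5.97 in control vessels, and 8 of 8 smooth muscle and 8 of 8 endothelial markers were measured. By limma none of either list passed. At an unadjusted p under 0.05, Lmod1 of smooth muscle was higher (log2 change 0.63, adjusted p = 0.0812). Of the endothelial markers, Vwf was higher (0.46, adjusted p = 0.178) and Cldn5 lower (-0.43, adjusted p = 0.0710). Of all tests, 12.2% were higher and 8.02% lower at that p. All arrays lay on 1 slide and in 1 scan, with each group in its own array positions, so position and group cannot be told apart.

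In hypertensive vessels, 1 of the 10 genes rose, Ltbp2, and no other passed the test in either direction. Ltbp2 encodes a fibrillin-binding LTBP of elastic tissue that, unlike its relatives, does not covalently carry latent TGF-beta. Its signal was 2.49-fold that of control vessels, with a 95% interval of 1.53 to 4.03. By their brightest probes, the intervals of the other 9 genes lay within 0.681-fold and 1.55-fold. The second probe of Tgfb2 reached 1.64-fold, and the dim second probe of Tgfbr1 ran from 0.667-fold to 1.67-fold. By the limma fit, 2.61% of all tests were called higher and 1.91% lower (4.53% together), and a count of 1 in 10 genes has to be read against that share. At an unadjusted p under 0.05 the count was 1 gene higher and 1 lower, the lower one being Ltbp4, against 20.3% of all tests in either direction (12.2% higher and 8.02% lower). The median log2 change of the 10 genes was -0.09, and that of all tests 0.04.

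**Figure D1:**
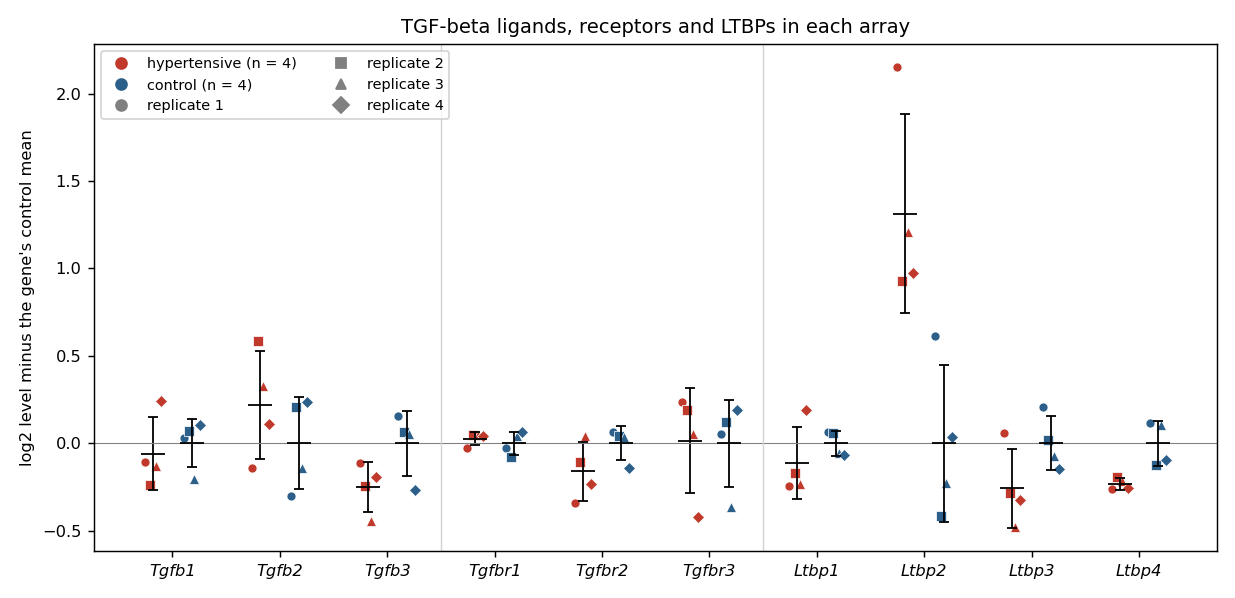
Level of each gene in each array, as the log2 level of its tested probe minus the mean of the 4 control arrays (y axis). Hypertensive arrays (red) stand left of control arrays (blue), symbols mark replicate numbers, and bars show the mean and SD of 4 arrays. The Ltbp2 points of the groups do not overlap, with hypertensive replicate 1 on top, and most other genes lie around 0 in both groups.

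Among the ligands, none passed the test. Tgfb1 encodes the most widely studied isoform, which platelets, macrophages and vessel wall cells can release. Its level was -0.73, -0.85, -0.75 and -0.38 in hypertensive replicates 1 to 4, against -0.59, -0.55, -0.82 and -0.51 in control replicates 1 to 4. The groups overlapped, and the highest and the lowest of the 8 values both came from hypertensive arrays. Its log2 change was -0.06 ± 0.12 (SE of the limma fit, as after each change below; adjusted p = 0.819). With 1 array left out it ran between -0.16 (without hypertensive replicate 4) and -0.0005 (without hypertensive replicate 2), with no call.

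Tgfb2 encodes the isoform that depends most on betaglycan for binding. Its brighter probe read -1.31, -0.58, -0.83 and -1.06 in hypertensive vessels, against -1.46, -0.96, -1.30 and -0.93 in control vessels. Replicate 1 was the lowest array of both groups, and the groups overlapped. The log2 change was 0.22 ± 0.18 (95% interval -0.19 to 0.63, adjusted p = 0.537), or 0.34 without hypertensive replicate 1, 0.0979 without hypertensive replicate 2 and 0.119 without control replicate 1. The second Tgfb2 probe, on the same transcript record, gave 0.29 ± 0.19 (adjusted p = 0.431 when every kept probe was tested on its own), so both probes had a change of the same sign that did not pass.

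Tgfb3 encodes the third isoform, which the mesenchyme of many tissues makes. Its level was 2.83, 2.69, 2.496 and 2.75 in hypertensive vessels, against 3.10, 3.004, 2.99 and 2.67 in control vessels. Control replicate 4 lay among the hypertensive values, and the other 3 controls lay above all of them. Tgfb3 differed by -0.25 ± 0.12 on the log2 scale (95% interval -0.51 to 0.01, adjusted p = 0.272).

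None of the receptor genes passed the test. Tgfbr1 encodes the type I receptor kinase ALK5, which phosphorylates Smad2 and Smad3. Its brighter probe read 1.45, 1.53, 1.53 and 1.52 in hypertensive vessels, against 1.45, 1.40, 1.52 and 1.54 in control vessels. All 8 values lay close together, with an SD within groups of 0.053, and only 1.22% of all tests had a smaller one. The log2 change was 0.03 ± 0.07 (95% interval -0.14 to 0.19, adjusted p = 0.866), and median centring and normexp turned its sign without a call. The second Tgfbr1 probe was dim, with a processed signal of 21.6 to 43.3 in hypertensive and 29.7 to 44.0 in control arrays. It gave 0.08 ± 0.29 (adjusted p = 0.910), with a 95% interval of -0.58 to 0.74.

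Tgfbr2 encodes the type II kinase, which binds ligand and activates the type I receptor. Its brighter probe, on a predicted transcript record, read 5.05, 5.29, 5.43 and 5.16 in hypertensive vessels, against 5.46, 5.43, 5.43 and 5.25 in control vessels. Hypertensive replicates 1 and 4 lay below all controls, and replicates 2 and 3 lay among them. This probe gave a log2 change of -0.16 ± 0.10 (95% interval -0.40 to 0.07, adjusted p = 0.427), or -0.0993 without hypertensive replicate 1. The probe on the curated transcript record gave -0.07 ± 0.13 (adjusted p = 0.793).

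Tgfbr3 read -1.87, -1.92, -2.06 and -2.53 in hypertensive vessels, against -2.06, -1.99, -2.47 and -1.92 in control vessels. Each group held 1 array well below its other 3, and the groups overlapped throughout. The log2 change was 0.01 ± 0.17 (95% interval -0.38 to 0.41, adjusted p = 0.976), and its sign turned under median centring and quantile normalization.

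**Figure D2:**
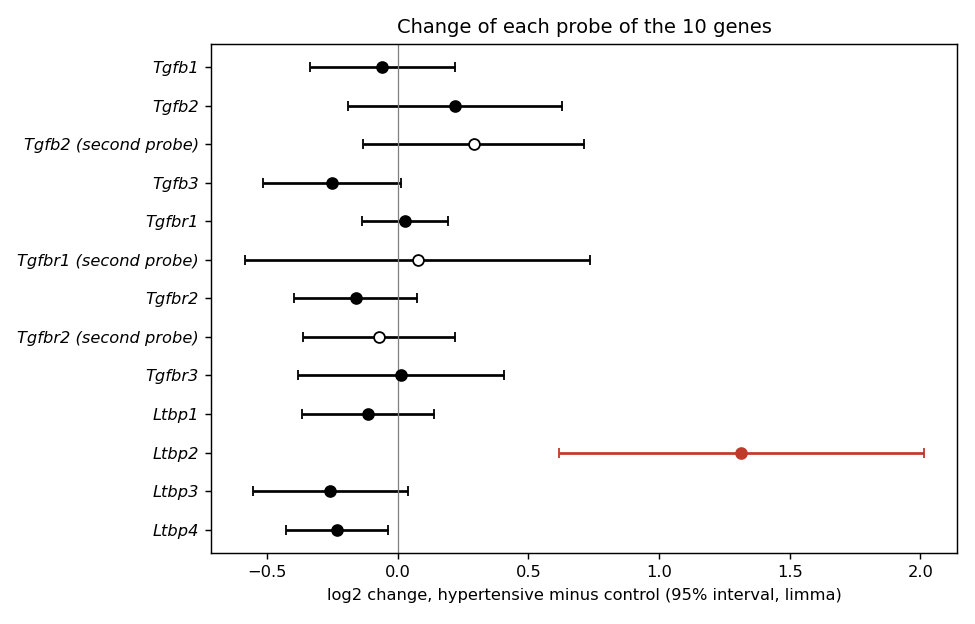
Log2 change, hypertensive minus control (x axis), with the 95% interval of the limma fit, for each of the 13 probes. Filled points are the probes that stood for a gene, open points the second probes. Only the interval of Ltbp2 (red, 0.62 to 2.01) has an adjusted p under 0.05; that of Ltbp4 (-0.43 to -0.04) leaves out 0 without passing over all tests.

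Of the LTBP genes, Ltbp2 differed most between the groups and also within them. Its processed signal was 918, 430, 523 and 542 in hypertensive replicates 1 to 4, against 418, 175, 248 and 267 in control replicates 1 to 4. On the log2 scale its level was 1.36, 0.14, 0.42 and 0.18 in hypertensive vessels, against -0.18, -1.21, -1.02 and -0.76 in control vessels. Every hypertensive array lay above every control array, and replicate 1 was the highest of its group in both. The groups did not overlap in either direction for 13.6% of all tests (7.84% higher and 5.78% lower).

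The Ltbp2 level averaged 0.52 ± 0.572 in hypertensive and -0.79 ± 0.448 in control vessels (SD, n = 4 each), and the log2 change was 1.31 ± 0.31 (adjusted p = 0.0487). The SD within groups of 0.514 was larger than that of 95.5% of all tests, whose median was 0.178. A larger absolute change was seen in 1.36% of tests. The call lay just inside the threshold and was lost when any 1 of 6 arrays was left out, as given with the plot of alternatives, while the change stayed above 1 in each case. In bulk vessel RNA, more cells of a type and more RNA per cell cannot be told apart.

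The promoter window of Ltbp2 is printed because it is the 1 gene of the 10 whose transcript passed the test. It is taken from RefSeq on GRCr8, chr6:110257249-110257548, minus strand, and holds 250 bases before and 50 after the annotated start. Capitals mark the letters CAGAC or, for the other strand, GTCTG, the core of the box that Smad3 and Smad4 bind.
Ltbp2 promoter: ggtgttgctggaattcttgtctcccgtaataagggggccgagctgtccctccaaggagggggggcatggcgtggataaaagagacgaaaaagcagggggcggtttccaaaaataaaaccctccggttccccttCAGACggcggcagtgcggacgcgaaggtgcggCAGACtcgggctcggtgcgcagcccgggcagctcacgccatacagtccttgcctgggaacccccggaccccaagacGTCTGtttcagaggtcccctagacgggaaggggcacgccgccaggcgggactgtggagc
The matches begin 117, 85 and 9 bases before the start, counted along the printed strand. Of 33469 rat promoter windows of this length, 50.1% hold at least 1 match on either strand and 4.17% hold 3 or more. Ltbp1 has 1 match and the other 8 genes have 0. The letters TGANTCA, the site of AP-1 factors, were found in 0 of the 10 windows, against 7.33% of all windows. Ltbp2's window is 63.3% G or C, against 52.7% over all windows. These counts describe letters and not binding.

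Ltbp1 encodes the best known carrier of latent TGF-beta 1. Its level was 0.98, 1.06, 0.996 and 1.42 in hypertensive vessels, against 1.29, 1.28, 1.17 and 1.16 in control vessels. Hypertensive replicates 1 to 3 lay below all controls and replicate 4, the array that stood apart, lay above them. The log2 change was -0.11 ± 0.11 (adjusted p = 0.604). Without hypertensive replicate 4 it was -0.22 ± 0.08 (adjusted p = 0.145), which was not past the threshold, and without hypertensive replicate 1 it was -0.0704 or without replicate 3 -0.0758. The part of the fat cell markers that were high in hypertensive replicate 4 was not tested.

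Ltbp3, which also carries latent TGF-beta, read 2.70, 2.36, 2.17 and 2.32 in hypertensive vessels, against 2.85, 2.66, 2.57 and 2.497 in control vessels. Hypertensive replicate 1 lay among the controls and the other 3 below them. Ltbp3 differed by -0.26 ± 0.13 on the log2 scale (95% interval -0.55 to 0.04, adjusted p = 0.311).

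Ltbp4, an LTBP that is needed for elastic fibre assembly, read 2.51, 2.58, 2.56 and 2.51 in hypertensive vessels, against 2.89, 2.65, 2.88 and 2.67 in control vessels. The groups did not overlap, and the hypertensive values spanned a narrower range than the controls. The log2 change of -0.23 ± 0.09 was not past the threshold over all tests (unadjusted p = 0.0244, adjusted p = 0.173), and stayed short of it under every alternative tried (adjusted p = 0.0584 to 0.346).

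**Figure D3:**
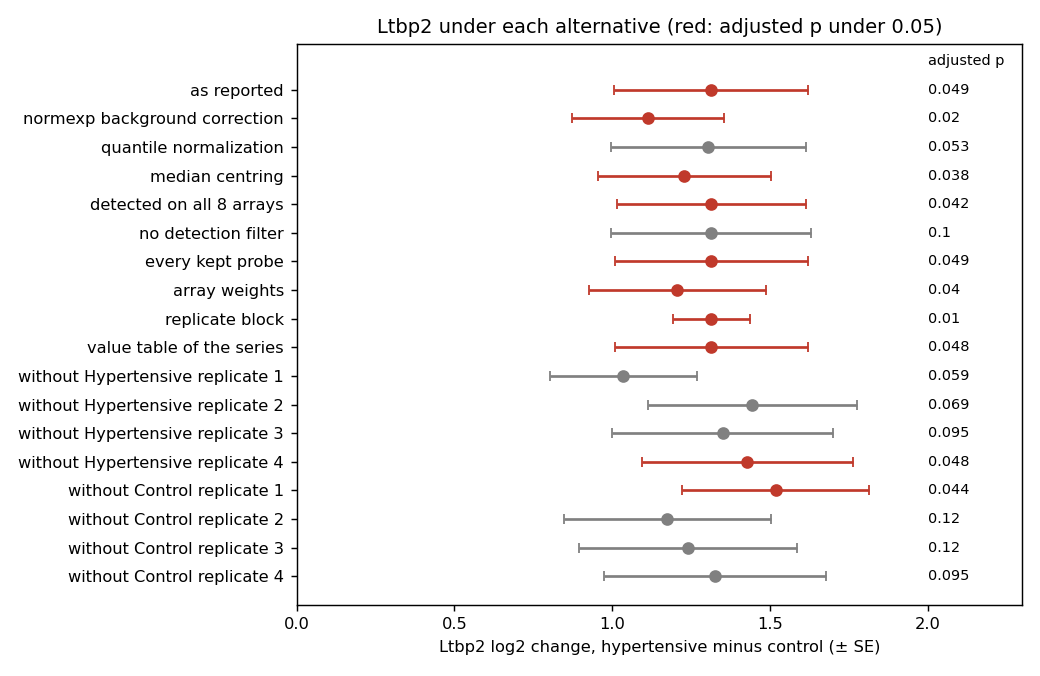
Log2 change of Ltbp2, hypertensive minus control, with its SE (x axis), as reported and under each alternative (rows), with the adjusted p of each at the right. Red points are past the threshold of 0.05 and grey points are not. The change lies between 1.04 and 1.52 when 1 array is left out, with an adjusted p of 0.0435 to 0.122.

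Among hypertensive arrays, leaving out replicate 1 (1.04 ± 0.23, adjusted p = 0.0593), replicate 2 (1.44, adjusted p = 0.0687) or replicate 3 (1.35, adjusted p = 0.0947) ended the Ltbp2 call. It was also lost without control replicate 2 (1.17, adjusted p = 0.122), replicate 3 (1.24, adjusted p = 0.116) or replicate 4 (1.33, adjusted p = 0.0952). It was kept without hypertensive replicate 4 (1.43, adjusted p = 0.0478) and without control replicate 1 (1.52, adjusted p = 0.0435). With the replicate block, it was 1.31 ± 0.12 with an adjusted p of 0.0100. Quantile normalization, with a change of 1.30, put it just outside the threshold (adjusted p = 0.0531).

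To ask whether relatives changed differently, the log2 levels of each pair within a role were subtracted array by array, and the difference was compared between groups by permuting the arrays exactly and on both sides. Over the 35 divisions of the arrays the smallest p is 0.0286, and p-values were adjusted over the 12 pairs. The change of Ltbp2 exceeded that of Ltbp1 by 1.43, that of Ltbp3 by 1.57 and that of Ltbp4 by 1.55, and in each of these 3 pairs no hypertensive array overlapped the controls (exact p = 0.0286, adjusted p = 0.114). No pair passed after adjustment, and a single pair could not have, even at the smallest p. The 3 pairs that reached the smallest p together still had an adjusted p of 0.114. With 4 arrays per group the adjusted test therefore could not decide whether Ltbp2 changed by more than its relatives. Ltbp2 minus Ltbp3 was -2.22 to -1.34 in hypertensive arrays, against -3.87 to -3.03 in control arrays. Among the ligands the widest difference was that of Tgfb2 minus Tgfb3, at 0.47 (exact p = 0.171, adjusted p = 0.411). Among the receptors it was that of Tgfbr1 minus Tgfbr2, at 0.19 (exact p = 0.143, adjusted p = 0.411).

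The named genes whose 8 levels, each centred on its own mean, lay closest to those of Ltbp2 were Prg4, Lamc3 and Vom2r15. Prg4 encodes lubricin, a secreted proteoglycan of joint and tendon surfaces, and Lamc3 a laminin gamma chain. Their root mean square differences from Ltbp2 were 0.283, 0.314 and 0.333 log2 units over the 8 arrays, among 11964 named genes compared. Prg4 read -1.57, -2.89, -2.10 and -2.62 in hypertensive vessels, against -3.32, -3.82, -3.49 and -4.05 in control vessels, again with hypertensive replicate 1 on top. Its log2 change was 1.38 and that of Lamc3 1.16. Vom2r15, a vomeronasal receptor gene, was well above background on 4 of 4 hypertensive and 1 of 4 control arrays, so its control level is mostly a bound. Since these genes were chosen for following Ltbp2 over the same arrays, their differences between groups follow from the choice and are given with no test.

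Genes around the 10 in the pathway were read from 5 lists of 76 genes, of which 61 were tested, 13 had no named probe and 2 were below the detection filter. By the limma fit 1 of the 61 passed (1.64%, against 4.53% of all tests), and it fell. Their median log2 change was -0.09.

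Of 14 tested matrix partners of LTBPs and TGF-beta, 1 fell past the threshold by limma and 13 did not pass. At an unadjusted p under 0.05, 3 of the 14 were lower, against 8.02% of all tests. In 2 of the 14 every hypertensive array lay below every control array, against 5.78% of all tests. The gene past the threshold was Mfap2, which encodes a small microfibril glycoprotein that binds fibrillin. Its level was 0.53, 0.31, -0.01 and 0.76 in hypertensive vessels, against 1.07, 1.43, 1.18 and 0.95 in control vessels, and the groups did not overlap. Its log2 change was -0.76 ± 0.17 (adjusted p = 0.0442). The call was kept without hypertensive replicate 4 and lost without any other 1 array (-0.83 to -0.62, adjusted p = 0.0596 to 0.113) with the replicate block (adjusted p = 0.124) and with no detection filter (adjusted p = 0.103). The list's median log2 change was -0.14.

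Of 13 tested genes that activate or hold latent TGF-beta, none passed by limma, and 2 were lower at an unadjusted p under 0.05, against 8.02% of all tests. Nrros, which encodes a membrane protein that tethers latent TGF-beta 1 on macrophages and microglia, read 0.42, 0.30, 0.13 and 0.70 in hypertensive vessels, against 0.85, 0.82, 0.73 and 0.88 in control vessels. Its groups did not overlap, and its log2 change was -0.43 ± 0.12 (adjusted p = 0.0860), or -0.54 without hypertensive replicate 4 (adjusted p = 0.0197). Nrros also passed with normexp background correction (adjusted p = 0.0495) and with array weights (adjusted p = 0.0299). It did not pass with any other 1 array left out (adjusted p = 0.137 to 0.186). Thbs1, which encodes thrombospondin 1, an activator of latent TGF-beta, differed by -0.92 ± 0.32 (adjusted p = 0.151), with overlapping groups. Its probe was dim, with a processed signal of 21.4 to 43.2 in hypertensive and 38.4 to 104 in control arrays. Normexp background correction brought the Thbs1 difference to -0.26. Beside these genes, 1 of 8 tested macrophage markers, Mrc1, fell past the threshold by limma. At an unadjusted p under 0.05, 4 were lower and 1 higher (8.02% and 12.2% of all tests). The median log2 change of the 8 was -0.28. The 4 were Mrc1 (-0.51), Csf1r (-0.49), Adgre1 (-0.47) and Cd163 (-0.68). The higher marker was Lyz2 (0.53, adjusted p = 0.0799 by limma), and Cd68, C1qa and C1qb changed by -0.05, -0.09 and 0.01. The summed macrophage marker level was 151 to 212 in hypertensive and 130 to 165 in control vessels, and without Lyz2, the brightest marker, 52.6 to 71.1 in hypertensive and 56.0 to 70.2 in control vessels. The part of these cells in the result was not tested.

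Of 11 tested co-receptors and inhibitors, none passed by limma, and 2 were lower at an unadjusted p under 0.05, again against 8.02% of all tests. Eng, endoglin, a co-receptor of endothelial cells, differed by -0.32 ± 0.09 (adjusted p = 0.0929). Bambi, a decoy receptor that lacks a kinase domain, differed by -0.38 ± 0.12 (adjusted p = 0.114). Both had every hypertensive array below every control array, as in 5.78% of all tests. Each passed in 1 of 9 alternatives that kept all arrays, normexp background correction (adjusted p = 0.0299 for Eng and 0.0491 for Bambi). That setting also raised the calls over all tests, from 641 to 1200 higher and from 470 to 655 lower. Neither gene passed with 1 array left out (adjusted p = 0.0781 to 0.210 for Eng and 0.0549 to 0.235 for Bambi).

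Of 9 tested intracellular signal carriers, none passed by limma, and 1 was higher at an unadjusted p under 0.05 (12.2% of all tests), with changes from -0.17 to 0.30. That was Crebbp, a coactivator of Smads, at 0.23 ± 0.09 (adjusted p = 0.175), whose second probe went the other way (-0.75 ± 0.27, adjusted p = 0.162). Traf6, a ubiquitin ligase that couples the receptors to MAP kinases, differed by -0.17 ± 0.08 (adjusted p = 0.277).

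Of 17 tested transcripts known to be raised by TGF-beta in many cell types, none passed by limma and none reached an unadjusted p under 0.05, which 20.3% of all tests did. The list's median log2 change was -0.03. Comp, cartilage oligomeric matrix protein, differed by 0.31 ± 0.19 (adjusted p = 0.409). Col1a1, the alpha 1 chain of type I collagen, differed by -0.95 ± 0.45 (adjusted p = 0.277), and by -0.44 ± 0.28 at its second probe (adjusted p = 0.425). It read 8.75 in hypertensive replicate 1 and 6.81 to 7.23 in the other 3, against 7.69 to 8.97 in control vessels, so 1 hypertensive array lay among the controls.

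**Figure D4:**
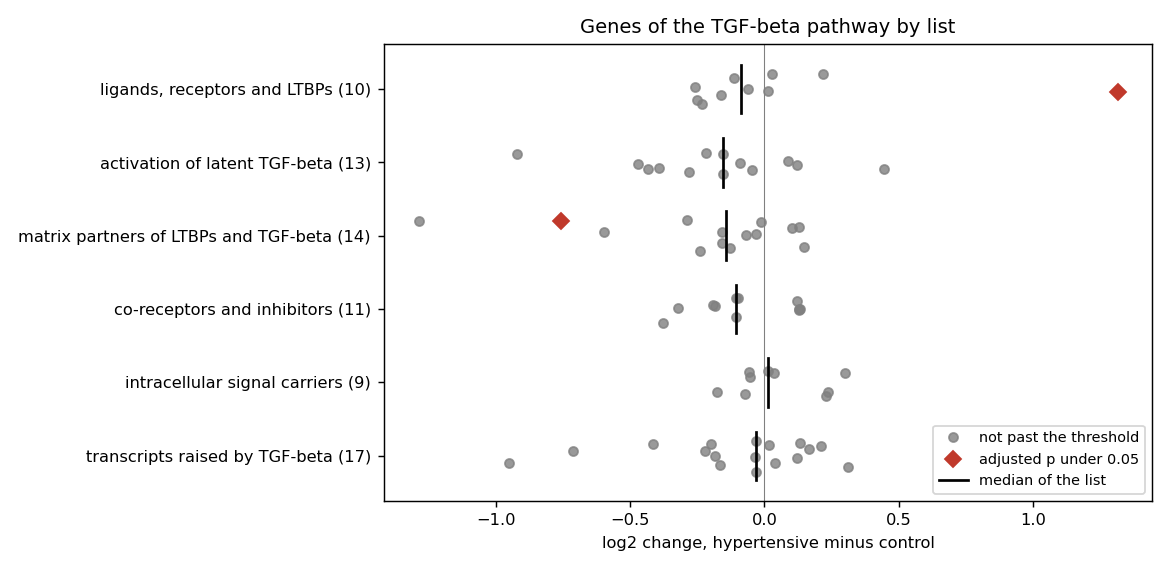
Log2 change, hypertensive minus control (x axis), of each tested gene in the 10 genes described and in 5 pathway lists (rows, number tested in brackets). Red diamonds have an adjusted p under 0.05, grey points do not, and black bars are list medians. Ltbp2 stands to the right of all others and Mfap2 is the 1 red point on the left.

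Among marker sums of other cells, those of the mast cell, nerve and platelet lists did not overlap between the groups. The mast cell and nerve sums overlapped once their brightest marker was left out, and the platelet sum was nearly all Pf4. The fibroblast, skeletal muscle and lymphocyte sums overlapped. Summed over tested markers on the linear scale, relative to the 75th percentile, the level of 7 mast cell markers was 7.40 to 12.09 in hypertensive and 4.17 to 4.95 in control vessels. Without Srgn, the brightest, the other 6 overlapped, at 2.57 to 4.39 in hypertensive and 1.92 to 2.66 in control vessels. Of the 7, 6 were higher by limma at an unadjusted p under 0.05 (12.2% of all tests), and 1 passed after adjustment. That of 6 nerve markers was 6.42 to 9.02 in hypertensive and 5.35 to 6.02 in control vessels, and without S100b, the brightest, 4.46 to 6.15 in hypertensive and 4.23 to 4.91 in control vessels. Of 5 platelet markers 2 were tested: Pf4 was 5.13 to 5.93 in hypertensive and 6.79 to 8.95 in control vessels (log2 change -0.44, adjusted p = 0.0557), and Gp9 had a log2 change of 0.17 (adjusted p = 0.449). The fibroblast sum of 5 markers was 678 in hypertensive replicate 1, where Ltbp2 was highest, and 334 to 417 in the other 3 hypertensive arrays, against 467 to 823 in control vessels. Without Col1a1, the brightest, it was 246 in hypertensive replicate 1 and 222 to 266 in the other 3, against 252 to 322 in control vessels. Of these lists, Srgn, a gene of the mast cell list, rose (log2 change 1.22, adjusted p = 0.00867 by limma). The nerve marker Nefh was well above background on 4 of 4 hypertensive and 0 of 4 control arrays (adjusted p = 0.000149 by limma). With control levels raised to at least that of the array's dimmest probe above background, it was 12.96-fold higher in hypertensive vessels. On control replicate 1 Nefh read -5.62, above that dimmest level of -6.245, without being called above background. The 12.96-fold value is therefore not a strict lower bound. No fibroblast or platelet marker passed by limma, with 1 fibroblast and 1 platelet marker lower at an unadjusted p under 0.05 (8.02% of all tests). Of 5 tested skeletal muscle markers, Myh1 rose (log2 change 2.28, adjusted p = 0.0397 by limma). Myh1 was well above background on 4 of 4 hypertensive and 3 of 4 control arrays. Among the 5, 2 were higher and 1 lower at an unadjusted p under 0.05 (12.2% and 8.02% of all tests). Their sums overlapped, at 0.901 to 1.45 in hypertensive and 1.17 to 1.31 in control vessels. Among 6 tested lymphocyte markers, none passed by limma and 3 were lower at an unadjusted p under 0.05 (8.02% of all tests). Their sums overlapped, at 6.20 to 10.9 in hypertensive and 9.07 to 11.9 in control vessels. For Cd3d every hypertensive array lay below every control array, as in 5.78% of all tests (log2 change -0.74, adjusted p = 0.0531 by limma). The part of these cells in the Ltbp2 result was not tested.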

How the data were processed

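The authors' deposited scanner files hold spot intensity values, which Agilent Feature Extraction had background-subtracted and processed. Its version is 10.7.1.1 per the file headers and 12.1.1.1 per the submitters' processing notes. The deposited value table holds a linear ratio of each signal to a constant of its array, with no centring on genes and no direction, and served as an alternative only. Its medians were 0.101, 0.093, 0.097 and 0.090 in hypertensive and 0.092, 0.089, 0.086 and 0.091 in control replicates 1 to 4. Per the labels' protocols, Cy3-labelled RNA was hybridised to 1-colour arrays.

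From the files, outlier spots (213 to 396 per array) were dropped where another spot of the probe remained, the remaining log2 values of a probe were averaged, and the 75th percentile of the array was subtracted. No gene spot was saturated (0 spots). Probes well above background on at least 3 of 4 arrays of a group were kept (27822). Accessions were matched to RefSeq gene symbols (GRCr8), which named 46.6% of probes. The brightest kept probe stood for each gene. Groups were compared with limma 3.58.1 in R 4.3.3 with Benjamini-Hochberg adjustment over 24552 tests and a threshold of 0.05. The number of arrays limits the precision. On simulated data for this comparison (24552 tests), 76 of 100 genes changed by a log2 value of 1 and 92 of 100 changed by 2 were recovered.

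The genes described and the pathway lists were chosen with earlier results of these data known. Paired relatives were compared with two-sided exact permutation tests. All 10 genes were described. From each pathway list the text names up to 4 genes past the threshold, or the 2 with the smallest p where none passed, and for Ltbp2 the 3 closest named genes. Marker genes and promoter letters were named after values were seen, and marker sums without the brightest marker were added after seeing the data. Normexp used the spot median and the local background median with an offset of 50, because no spot mean is in the files. The replicate numbers of the titles were not taken to pair animals, since the deviations of same-numbered arrays from their group means correlated at 0.206, 0.115, -0.004 and -0.148. Nothing in the labels says more than that the samples are separate rats.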

Additional observations from a re-analysis of the deposited data

Results flagged for a closer look

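Among 38 groups of 4 arrays examined, 2 held an array farther from the rest than the 95% critical value of Dixon's test allows, and chance gives about 1 in 20. Tgfbr1 read 1.45 in hypertensive replicate 1, against 1.52 to 1.53 in the other 3 hypertensive arrays, a gap of 0.945 of the group's range. Tgfbr2 read 5.25 in control replicate 4, against 5.43 to 5.46 in the other 3 control arrays, a gap of 0.866 of the range.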

How the results depend on the processing

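The 10 genes gave 1 higher call, and 0 with quantile normalization or no detection filter, where the Ltbp2 change was 1.30 (adjusted p = 0.0531) and 1.31 (adjusted p = 0.104), and 0 to 1 with 1 array left out. Lower calls were 0 under all 17 alternatives, and no other member passed in any of them (limma). Over all tests, 641 were higher and 470 lower. Higher calls were 1200 with normexp, 422 with median centring, 375 without the detection filter and 381 with the replicate block, and 379 to 853 with 1 array left out. Lower calls were 655 with normexp, 652 with median centring, 266 without the filter and 294 with the replicate block, and 247 to 620 with 1 array left out. Quantile normalization gave 529 higher and 586 lower. Median centring moved the median of all tests by -0.09.

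Signs turned only for values near 0. Tgfbr1 was -0.0064 with normexp and -0.059 with median centring. Tgfbr3 was -0.0322 with quantile normalization, -0.0719 with median centring and -0.11 to 0.16 with 1 array left out. The difference in change of Tgfbr1 minus Tgfbr3 was -0.0687 with normexp and -0.14 to 0.15 with 1 array left out, and that of Ltbp3 minus Ltbp4 was -0.14 to 0.0542 with 1 array left out. No pair of relatives passed with normexp, the value table, second probes or 1 array left out, the alternatives run for pairs. There too the 3 Ltbp2 pairs alone could not pass, even at the smallest p, so this outcome decides nothing about them. The cause of these differences was not tested. The slide or scan block was not run, as all arrays share 1 slide and 1 scan. The Mfap2 call was also lost with no detection filter (adjusted p = 0.103). The replicate block ended the call of Mfap2 and of no other member or named pathway gene, and with it only 2 of 4 same-numbered pairs of arrays deviated together (0.206 and 0.115).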
